A study of Mus musculus with 18 samples.

Results

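The chromatin of 10 transcription factor genes was described in mouse CD4 T cells: Batf, Batf3, Jun, Junb, Fos, Fosl2, Irf4, Irf8, Maf and Bhlhe40. A region was counted for a gene when the authors' deposited table named that gene as overlapping the region or as lying beside it. The 10 genes were selected by name, and all were found. They were named by 34 distinct regions, out of 65983 regions and 26755 named genes in all, and lay on 7 chromosomes.

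The assay was ATAC-seq, which marks loosely packed DNA by where a transposase inserts adapters. Naive CD4 T cells had been activated with beads carrying antibodies to CD3 and CD28 in a Th1-polarising medium with IL2, IL12 and an antibody to IL4, a culture that all samples shared. The 18 samples form 6 groups of 3: Id3 knockout (Id3-KO) and wild-type (WT) cells labelled Th1 at 24 h, and Id3-KO and WT cells labelled Tcmp or Teff at 72 h; these cell labels are used as given. The labels give neither the strain, sex or age of the mice, nor how the Id3 allele was made, nor whether replicate samples derive from different mice. Id3 itself could not be checked sample by sample, because the table holds 1 set of regions for all samples and no value per sample. Every count and width below therefore describes the pooled set. It has no replicate error, cannot be split by genotype, cell label or time, and was compared without a test, since the 10 genes were chosen by name and not drawn from all genes.

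AP-1 factors are dimers of basic leucine zipper proteins, of which Jun and Junb can pair with Fos, Fosl2, Batf and Batf3. Batf dimers bind jointly with Irf4 or Irf8 at composite elements in lymphocytes, a partnership that T cell receptor signalling feeds by inducing Batf and Irf4. Maf is a larger basic leucine zipper protein that drives IL-10 and IL-4 expression in T cells. Bhlhe40 is a basic helix-loop-helix repressor induced by activation that limits IL-10. Id3, the deleted gene, binds E proteins, basic helix-loop-helix activators that recognise E-box sequences, and keeps them off DNA.

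RefSeq promoters (build GRCm38.p6) were available for 8 of the 10 genes, in 9 entries, Irf8 having 2. The 250 bases before the start are shown for the 4 entries that held a preferred E-box or the IRF pattern, and for Jun, whose start had no region near it. Capitals mark an E-box that E proteins prefer (CAGCTG or CACCTG, either strand) in Fos, Junb and Irf8, and a pair of GAAA or TTTC blocks with 2 bases between them, the pattern read by IRF proteins, in Fosl2. Jun has no capitals, as neither was found in these letters.
Fos, chr12:85473640-85473889, plus strand: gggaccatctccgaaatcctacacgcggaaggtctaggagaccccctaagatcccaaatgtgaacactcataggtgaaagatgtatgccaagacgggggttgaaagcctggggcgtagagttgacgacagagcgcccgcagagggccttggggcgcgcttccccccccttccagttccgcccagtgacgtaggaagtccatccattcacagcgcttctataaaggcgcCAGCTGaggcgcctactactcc
Junb, chr8:84978749-84978998, minus strand: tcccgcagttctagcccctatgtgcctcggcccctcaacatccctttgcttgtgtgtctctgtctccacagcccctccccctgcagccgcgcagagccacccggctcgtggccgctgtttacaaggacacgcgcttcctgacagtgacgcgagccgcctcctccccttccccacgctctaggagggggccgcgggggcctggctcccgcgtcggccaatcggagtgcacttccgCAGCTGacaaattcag
Irf8, second entry, chr8:120738389-120738638, plus strand: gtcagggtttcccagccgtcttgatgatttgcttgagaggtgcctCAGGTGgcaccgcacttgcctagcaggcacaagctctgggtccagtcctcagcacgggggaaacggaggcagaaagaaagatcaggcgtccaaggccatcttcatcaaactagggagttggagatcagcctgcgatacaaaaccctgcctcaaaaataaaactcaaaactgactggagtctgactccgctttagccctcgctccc
Fosl2, chr5:32136222-32136471, plus strand: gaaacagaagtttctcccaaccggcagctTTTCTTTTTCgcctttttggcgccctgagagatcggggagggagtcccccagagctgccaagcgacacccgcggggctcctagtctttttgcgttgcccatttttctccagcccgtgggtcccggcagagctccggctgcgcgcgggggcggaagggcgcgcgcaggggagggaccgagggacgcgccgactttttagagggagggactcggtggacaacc
Jun, chr4:95052223-95052472, minus strand: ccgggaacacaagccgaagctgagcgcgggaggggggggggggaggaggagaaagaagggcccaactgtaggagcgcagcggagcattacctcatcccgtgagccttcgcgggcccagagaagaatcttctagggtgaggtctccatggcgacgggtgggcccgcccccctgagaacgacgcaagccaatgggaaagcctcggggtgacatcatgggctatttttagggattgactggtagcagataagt

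The preferred E-box stood 22 to 17 bases before the start in Fos and 16 to 11 bases before it in Junb. In Irf8 it stood 205 to 200 bases before the start of the second entry, read on the minus strand. These 3 of 9 entries were 33.3%, beside 32.9% of all 32851 RefSeq promoters of the same length of 300 bases. The share in these genes was thus close to that in promoters at large. Any CANNTG, a looser form that contains the preferred ones, occurred in 7 of the 9 entries and in 72.3% of all promoters.

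The letters TGANTCA, to which AP-1 dimers bind, occurred in 0 of the 9 entries and in 7.81% of all promoters, searched on both strands. The related TGACGTCA was also found in 0 of 9, against 1.79%. Only exact letters were searched, so near matches, such as tgacatca in the Jun bases shown above, were not counted. The composite of Batf and IRF proteins (TGANTCA directly after GAAA, or 4 bases after TTTC, which contains the AP-1 motif) was found in 0 of 9, against 0.244%. The IRF pattern in Fosl2, 221 to 212 bases before the start, was the only 1 among the 9, against 3.44% of all promoters. The 9 entries were richer in G and C than promoters at large, with a median GC content of 63.6% against 52.4% over the 250 bases, and a median of 15 CpG pairs against 6. Batf was the poorest of the set, with 46.4% GC and 7 CpG pairs.

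The genes differed widely in how many accessible regions named them. Batf had 8 regions, Junb had 5, Batf3 and Irf4 had 4 each, Fosl2, Irf8 and Bhlhe40 had 3 each, Fos had 2, and Jun and Maf had 1 each. The median was 3 for the 10 genes and 2 for all named genes (quartiles 1 and 3, highest 366). Batf stood at the 95.1th percentile of all named genes with ties split evenly, Junb at the 88.0th, and Jun and Maf at the 18.7th. Among all protein-coding RefSeq symbols, with absent ones at 0, Jun and Maf stood at the 38.0th, and among genes without predicted or clone-based names at the 13.5th. More regions than the median were found at 7 of the 10 genes, beside 37.5% of all named genes and 18 of 27 related genes (66.7%). By overlap alone, or with a flank of at most 2000 bp, only Batf, Batf3, Junb, Fosl2 and Irf4 exceeded the median, still 2. A gene enters the table only with at least 1 region, and a long gene can hold more of them, so these ranks compare loci and not degrees of opening.

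**Figure D1:**
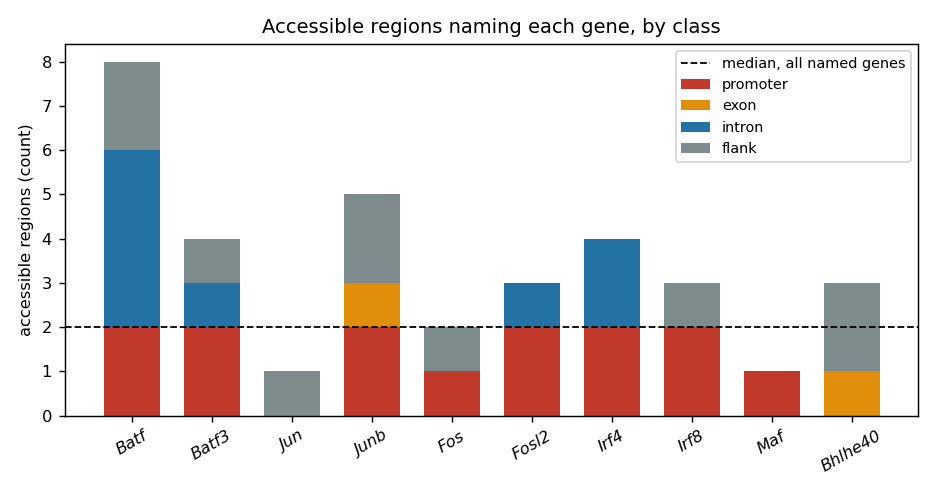
Number of accessible regions (vertical axis, count) naming each of the 10 genes, stacked by the class of the region for that gene, with the median of 2 over all named genes as a dashed line. Batf reaches 8 regions, Jun and Maf have 1 each, and Jun and Bhlhe40 have no promoter part.

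Each region carries a code for the named gene. P stands for the promoter interval, E for an exon and I for an intron, and a region outside the gene is listed with its distance if it lies within 5000 bp. From the distances, the P code reached 3000 bp before a start: the farthest coded region lay at 3000 bp and the nearest region without the code at 3001 bp. Of the 34 regions, 14 had the promoter code (41.2%), 2 an exon code without it (5.88%), 8 an intron code alone (23.5%), and 10 lay in a flank only (29.4%). Over all 76685 pairs of a gene and a region the shares were 37.0%, 7.16%, 34.2% and 21.7%. The order of the 2 promoter shares turned when regions within 2000 bp were joined, to 37.0% at the 10 genes and 38.3% over all genes. The intron share of the pairs was thus smaller, and the flank share larger, than among all pairs, in which genes with many regions weigh most. Counted by gene, 4 of the 10 had an intron region (40.0%), beside 32.0% of all named genes. At least 2 promoter-coded regions were present at 6 of the 10 genes, beside 21.8% of all named genes. With regions within 2000 bp joined, Batf, Batf3, Fosl2 and Irf4 each had 1 promoter-coded region, and only Junb and Irf8 kept 2. The share over all named genes was not computed with that joining.

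Batf, the inducible partner of the Jun proteins and IRFs, had the fullest locus (chromosome 12, plus strand, GRCm39 as throughout for regions). A region with the promoter and exon codes (85733151 to 85733750, 600 bp) was followed by a region over the promoter interval and an intron (85734701 to 85735100, 400 bp). Within the introns there were 4 further regions, of 500, 350, 500 and 600 bp, the first at 85740001 to 85740500 and the last at 85752151 to 85752750. Accessible sites were thus spread along the whole gene. The remaining 2 regions lay 1590 and 3340 bp past its annotated end, with widths of 550 and 600 bp. The same combination of classes, 2 promoter, 4 intron and 2 flank regions, occurred in 5 other genes of the table.

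Batf3, a paralogue of Batf best known from dendritic cells, had a more compact set on chromosome 1 (plus strand). Its promoter regions lay 2094 bp (190827351 to 190827950) and 94 bp (190829451 to 190829950) before the annotated start. Both stopped short of the start, so that no region covered it. An intron region of 650 bp (190834851 to 190835500) and a region of 750 bp 2109 bp past the last exon (190843251 to 190844000) completed the locus. The last of these was wider than any promoter region of the 10 genes.

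The chosen Jun family members differed. Jun, the founding AP-1 subunit, was named by a single region of 450 bp and 4 windows (chromosome 4, 94933351 to 94933800). It lay 3471 bp beyond the annotated 3′ end of Jun at position 94937271, the gene being on the minus strand, and inside an intron of another annotated gene, ENSMUSG00000052767. The region before that end and the next region on the far side of Jun, from 94956201, were 22400 bp apart. No region overlapped Jun or its promoter interval. Among all named genes, 24.0% had no promoter-coded region. How windows were filtered was not stated, so the lack of a region does not show that the promoter was closed.

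Junb, which also dimerises with Batf, had 5 regions on chromosome 8 (minus strand). The region with both the promoter and the exon code (85702951 to 85703450) was 500 bp wide. It lay further into the gene than the outermost annotated start, at 85705347, and did not reach that start. A second promoter-coded region of 550 bp (85706401 to 85706950) lay 1054 bp before the outermost annotated start. A region of 300 bp, a single window, overlapped exons of Junb and of Prdx2, a peroxidase gene on the other strand whose end meets that of Junb (85700951 to 85701250). Junb thus shares its 3′ side with a neighbour. Its remaining regions lay 4563 bp past the 3′ end (700 bp, over the promoters of Prdx2 and Rnaseh2a, a subunit of ribonuclease H2, and of ENSMUSG00000111184) and 3654 bp upstream (750 bp). The first of these had the promoter code for 3 other genes, so that its link to Junb is by distance alone.

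Both of the chosen Fos family members had a region across the start. Fos, an immediate early gene, had a region of 500 bp (chromosome 12, 85520401 to 85520900, plus strand) that ran from 263 bp before to 236 bp after the start implied by the distances in the table. The Fos promoter bases shown above come from another build and were not laid over this region. The other Fos region, 400 bp and 3 windows wide, lay 4814 bp upstream (85515451 to 85515850). Fosl2, a Fos relative with a longer-lasting protein, had a region of 550 bp across its start on chromosome 5 (32292851 to 32293400, plus strand), from 294 bp before to 255 bp after it. A region of 450 bp 1895 bp upstream (32290801 to 32291250) also carried the promoter code of ENSMUSG00000102759 on the opposite strand, as the region at the start did. An intron region of 550 bp (32305851 to 32306400) completed the locus.

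The chosen IRF genes both had a region across the start. Irf4, whose level follows the strength of receptor signalling, had the narrowest promoter regions of the 10 genes. The region from 208 bp before to 141 bp after its start on chromosome 13 (30933001 to 30933350, plus strand) was 350 bp and 2 windows wide, and the region 1509 bp upstream (30931401 to 30931700) was 300 bp and 1 window wide. Regions of 1 or 2 windows made up 6.10% of all promoter regions in the table, and these 2 were the only such promoter regions among the 14. A further 2 regions of 450 bp each lay in introns of Irf4 (30937951 to 30938400 and 30944201 to 30944650).

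Irf8, which takes part in myeloid and lymphoid programmes, had a wide region of 700 bp and 9 windows across its outermost start on chromosome 8 (121462651 to 121463350, plus strand), from 446 bp before to 253 bp after it. This was the widest promoter-coded region of the 10 genes. A second region with the promoter and exon codes, 550 bp wide, lay further into the gene (121478701 to 121479250), and another of 450 bp lay 3947 bp upstream (121458701 to 121459150). All 3 also lay in an intron of ENSMUSG00000092329, a gene of the same strand that spans the locus, and the upstream one lay 4019 bp from ENSMUSG00000097895.

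Maf and Bhlhe40 had 1 and 3 regions, none of them in an intron of their own. The Maf region was 450 bp and 4 windows wide, with the promoter and exon codes on chromosome 8 (116434451 to 116434900, minus strand), with ENSMUSG00000086717 of the opposite strand 479 bp away. A single promoter-coded region and nothing else was the pattern of 5662 other genes. Bhlhe40, on chromosome 6 (plus strand), had a region of 600 bp over an exon (108642401 to 108643000), 1 of 500 bp 1265 bp past its end (108645151 to 108645650), and 1 of 450 bp 4340 bp upstream (108632801 to 108633250) that lay in an intron of 0610040F04Rik and had the promoter code of ENSMUSG00000090576. The start at 108637590 fell in a stretch of 9150 bp without a region. Jun and Bhlhe40 were the 2 of the 10 genes with no promoter-coded region, which, as said for Jun, does not show closed chromatin.

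The outermost annotated start could be placed from the distances for 7 of the 10 genes, and for 9932 of all named genes. Where more than 1 region placed a start, in 1357 genes, each gave the same position in 1357. A region covered the start in 4 of the 7 genes (Fos, Fosl2, Irf4 and Irf8) and in 31.7% of the 9932. The uncovered ones were Batf3, Junb and Bhlhe40. Only genes with a region wholly upstream of them could be placed, so the share is not that of all genes.

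**Figure D2:**
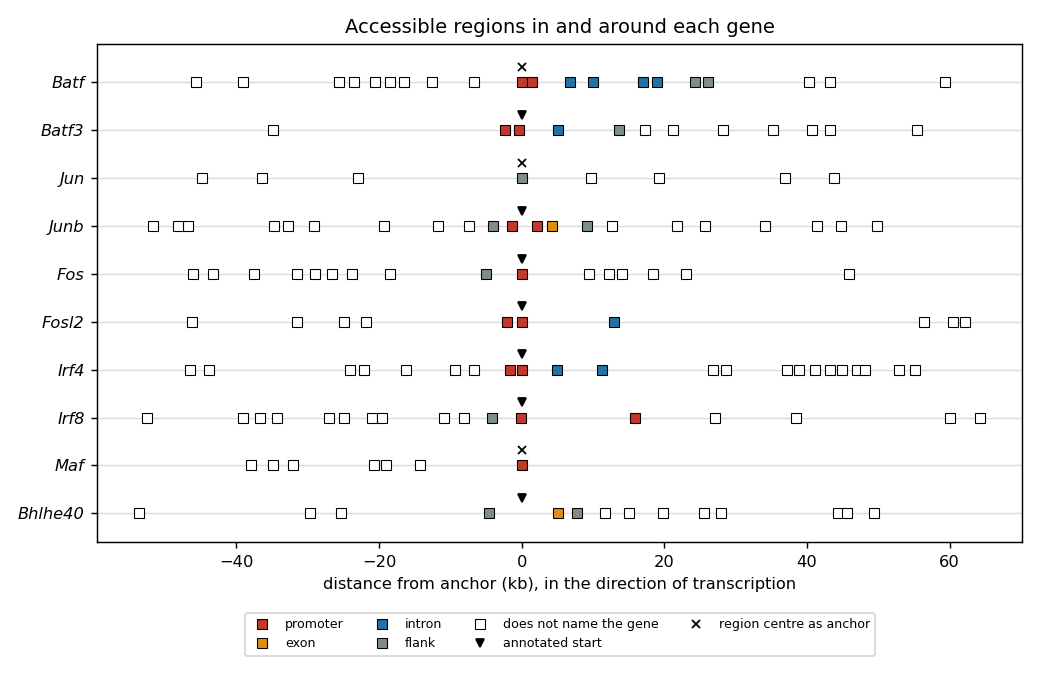
Centres of the regions that name each gene (filled squares, coloured by class) and of the other regions within 50 kb of them (open squares), against distance in kb in the direction of transcription. Zero is the outermost annotated start for 7 genes (triangles) and the centre of a region for Batf, Jun and Maf (crosses; for Jun the region past its 3′ end). Open squares lie near every gene, and for Maf all 6 lie upstream.

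Within 50 kb, the surroundings of these genes held more regions than those of the median named gene. Within 50 kb on either side of the regions that name a gene, the number of other regions was 18 at Irf4, 16 at Junb, 14 at Fos and at Irf8, 12 at Batf, 11 at Bhlhe40, 8 at Batf3, 7 at Jun and at Fosl2, and 6 at Maf. The median over all named genes was 5, so that all 10 lay above it, as did 46.3% of all named genes. At least 12 such regions were found at 5 of the 10 genes and at 8.72% of all named genes. Within 20 kb 7 of the 10 lay above the median of 2, with Fosl2 below it and Jun and Maf at it, and within 100 kb 8 lay above the median of 11, with Maf below it and Fosl2 at it. The median within 50 kb was 11.5 for the 10 genes and 8 for the 27 related genes, of which 21 also lay above 5. These counts were not set against protein-coding genes alone.

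Fos shows how far named and surrounding regions can part. It had 2 named regions but 14 others nearby, 11 of which named no gene at all. Upstream there were 8, from 12901 to 40501 bp away, and downstream 6, from 8951 to 45351 bp away. Bhlhe40 had 8 regions downstream, between 3301 and 40901 bp from its last named region, and none of the 8 named a gene. At Maf 6 regions lay upstream, between 13851 and 37451 bp away, again without a gene name, and none lay downstream.

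Irf4 had 11 regions downstream, from 15051 to 43451 bp away, of which 4 named no gene, and 7 upstream. The nearest of those upstream, 4501 bp from its first named region, was 750 bp and 10 windows wide (30926151 to 30926900) and thus wider than any region that named Irf4. The 10 regions upstream of Irf8, from 3401 to 47851 bp away, all named another gene, ENSMUSG00000092329 among them. The surroundings of Junb were likewise occupied by other genes, such as Hook2 upstream and Mast1 downstream, and 0 of its 16 nearby regions lacked a gene name. Of the 113 nearby regions in all, 48 named no gene (42.5%), against 18.8% of all regions in the table. These shares are not of like sets: regions that name the gene itself were left out of the 113. The same share around all named genes was not computed. Regions without a name numbered 11 at Fos, 8 at Bhlhe40 and 7 at Irf4, but 0 at Jun, Junb and Irf8. Which gene such a region acts on was not measured.

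**Figure D3:**
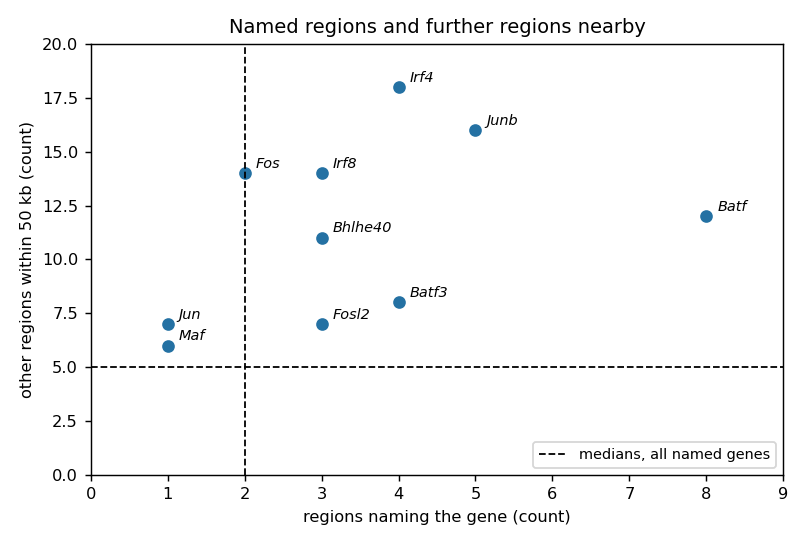
Other regions within 50 kb (vertical axis, count) against regions naming the gene (horizontal axis, count), 1 point a gene, with the medians of all named genes, 5 and 2, as dashed lines. All 10 points lie above the horizontal line, with Irf4 highest at 18 and Batf farthest to the right at 8.

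Fos and Batf are neighbours. The 212250 bp between the last Fos region and the first Batf region held 27 regions, 15 of which named no gene. Jdp2, a basic leucine zipper repressor of AP-1, was named by 6 of them. So 3 basic leucine zipper genes share this stretch of chromosome 12, and the regions that name none of them were not assigned to any.

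The promoter regions of these genes were somewhat narrower than promoter regions in general. Their median width was 500 bp (range 300 to 700 bp, 14 regions), against 600 bp over 22920 regions with a promoter code for any gene. Narrower than 600 bp were 11 of the 14 (78.6%), against 39.7% of all. Over all 34 regions the median was 500 bp (quartiles 450 and 600 bp) with 5 windows, against 550 bp (quartiles 500 and 650 bp) with 6 windows. Nearby regions, which do not name the genes, had a median of 600 bp.

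Width and number of windows are nearly the same measure. Windows of 300 bp stood at steps of 50 bp, and the width was that of an unbroken run of windows in 33 of the 34 regions and in 97.8% of all. The exception was the region upstream of Bhlhe40, with 3 windows in 450 bp. The widest of the 34, at 750 bp and 10 windows, were those past the end of Batf3 and upstream of Junb, neither of which had a promoter code. A width tells how far the windows kept in the table extend, and not how many transposase cuts fell there.

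**Figure D4:**
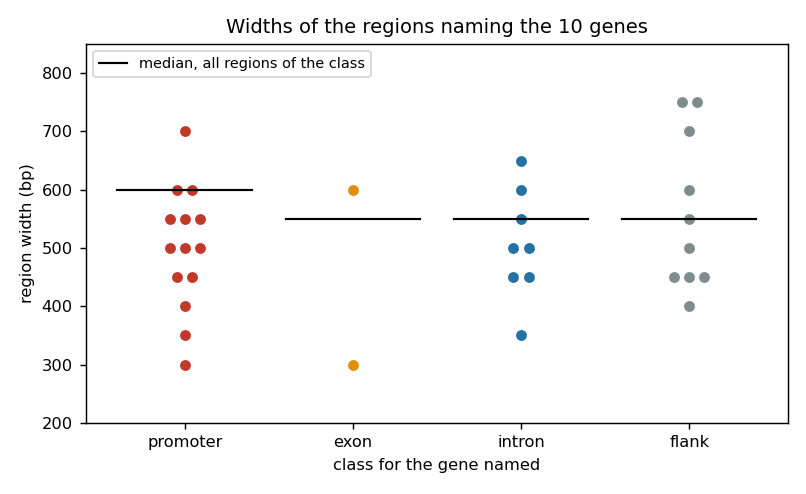
Width in bp (vertical axis) of each of the 34 regions, 1 point a region, by its class for the gene named, with the median of all regions of that class as a line (class by the first of promoter, exon, intron or flank that any gene gives). In the promoter class 11 of 14 points lie below the line at 600 bp, and both regions of 750 bp lie in the flank class.

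Related AP-1 and IRF genes set the range for such loci. All 27 genes of a list of relatives were named, with a median of 4 regions (quartiles 2 and 5). Bach2, a basic leucine zipper repressor that competes with AP-1 and guards the naive state, had 59 regions, 53 of them in introns. Irf2, an antagonist of Irf1, had 11, and Atf3 and Bach1 had 7 each. Irf1, Irf3 and Irf9 had 1 region each, like Jun and Maf. A promoter-coded region was missing in 1 of the 27, Bhlhe41, the paralogue of Bhlhe40, which had 4 regions (2 exon and 2 flank); this pair was singled out after the values were seen.

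Regions at marker genes describe the table's breadth. A promoter-coded region was listed for 5 of 5 T cell markers (Cd3e, Cd3d, Cd4, Cd5 and Lck) and for 3 of 4 Th1 markers. The exception, Tbx21, the master regulator of Th1 cells, had 6 regions in its exon, introns and flanks. Other cell types' genes were listed as well: 2 of 4 B cell, 2 of 4 myeloid and 2 of 2 erythroid markers had a promoter-coded region, as had 0 of 2 hepatocyte and 0 of 2 neuron markers. A listed region thus does not show that a gene was active in these cells, and the part of other cells in the set was not tested.

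The deposited fold changes and p-values are not given for these genes, because they follow the order of the table. In the authors' deposited table the p-value per window (the region p over its number of windows, where the region p is below 1) fell 0 times between successive regions in all 6 contrasts. The calls at an adjusted p of 0.05 at the 10 genes lay on chromosomes early in that order. In the Th1 contrast at 24 h 4 of the 34 regions were called in the authors' deposited table, beside 12.7% of all regions, and all 4 were those of Batf3 on chromosome 1. In the Tcmp knockout contrast 6 were called (18.7% of all regions), in the Teff one 4 (9.52%), in the pooled 72 h one 13 (22.9%), in Id3-KO Teff against Tcmp 18 (44.0%) and in WT Teff against Tcmp 0 (2.32%). The 18 were all regions of Batf3, Batf, Fos and Irf4 on chromosomes 1, 12 and 13, early in the table's order, and no region of Jun, Junb, Fosl2, Irf8, Maf or Bhlhe40 was called in any of the 6 contrasts. Nothing about a change at these genes is read from this.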

How the data were processed

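The file used was a table of the authors' own comparisons, 65983 regions listed under each of 6 contrasts with the same positions, windows and gene names, and no value for any sample. Per the submitters' processing notes the build was GRCm39 and the tools included BWA, Picard, Trim Galore and edgeR, with no versions or roles stated. Window filtering and merging, and the annotation, were not stated. Per the file headers, the authors deposited for each region a number of windows and a width in bp (other units), a p-value with its adjusted value and a log2 fold change. The p-values were used only for the order of the table and its calls, and the fold changes for nothing. Library depth is unknown, so no interval for counting error is given.

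Gene names were read from the columns for overlap, left and right. A region's edge plus its listed distance gave the nearest annotated exon edge, and, for a region wholly before a gene, its outermost start. Regions near a gene were those whose centre lay within 50 kb of the span of its regions. All 10 genes matched the symbols of the RefSeq table (GRCm38.p6), used for names only, and motifs were searched in the RefSeq promoters of that build because no genome of the files' build was used. The genes and lists were chosen with earlier results of these data known. Named were all 10 genes, genes sharing a region with them, and of the 27 relatives the 5 with the most regions; those with 1 region were added after the values were seen, and some names that the rule gives are not reported here. Parsing, joining and motif search were tested on simulated data. Python 3.11.15, numpy 2.4.6 and scipy 1.17.1 were used.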

Additional observations from a re-analysis of the deposited data

How the results depend on the processing

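Of 27 alternative values, 25 kept within 1.5 times of a count or median, or within the 95% Wilson interval of a share. Some of the 25 could not have moved: those that joined regions within 200 bp, and those that changed only the genes compared with. Counting overlaps alone raised the promoter share from 41.2% to 58.3% (24 regions; 47.2% over all genes), and any CANNTG in place of the preferred E-boxes raised the share of promoters to 77.8%. With regions of at least 3 windows Irf4 lost both of its promoter regions (4 regions became 2). By overlap alone Jun went from 1 region to 0, Bhlhe40 from 3 to 1, Fos from 2 to 1, Junb from 5 to 3 and Irf8 from 3 to 2; with a flank of at most 2000 bp Jun also went to 0, Fos to 1, Bhlhe40 to 2, Junb to 3 and Irf8 to 2. Joining regions within 200 bp changed nothing, since none are closer than 600 bp. Joining within 2000 bp, added after the data were seen, left 27 regions, Batf going from 8 to 5 and Fosl2 from 3 to 2, and put the promoter share below that over all genes (37.0% against 38.3%). The median of all protein-coding RefSeq symbols, with absent ones at 0, was also 2. Planned motif searches by central bases, by overlap and by windows were not run, as no genome of the build was used. No paired analysis was possible because no sample has values of its own in the deposited table. For the same reason no replicate was left out.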
